A study of Mus musculus with 3 samples.

Results

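Cyp2e1 and Cyp1a2, which encode 2 cytochrome P450 enzymes of the liver, were taken from the count matrix by their gene symbols. Each symbol matched 1 row, so the results below concern 2 of the 55357 genes listed. The study sequenced single cells of mouse liver in 3 libraries. They came from control animals, from animals fed a high-fat diet (HFD) and from animals injected with carbon tetrachloride (CCl4). Hepatocytes and nonparenchymal cells from collagenase-perfused livers were mixed 1:1 before droplet capture on the 10x Genomics 3′ platform. The diet served as a model of metabolic steatohepatitis and CCl4 as a model of liver fibrosis.

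All animals were wild-type C57BL/6 males, aged 8 weeks at the start. The control group was left untreated under standard housing. The HFD group was fed for 4 months on feed in which fat gave 60% of the energy. The CCl4 group ate chow for 3 months and then received intraperitoneal injections of 0.1 mL of a 10% CCl4 solution 2 times a week for 4 weeks. Cells of 2 mice were pooled in a library, and the pooled animals cannot be told apart. With 1 library per group, no test across samples was possible, no p-value is given, and every interval below is a 95% interval that covers counting error only. Diet and injection differ between the groups together with the library and cannot be told apart from it. The time to sampling of the control animals is not given, so whether age at sampling differed from theirs is not known. No vehicle injection is named for the control animals.

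Cytochrome P450 enzymes are heme proteins of the endoplasmic reticulum that oxidize drugs, toxins and fatty acids with electrons from P450 reductase. CYP2E1 is the main enzyme that splits CCl4 into the trichloromethyl radical, and it also oxidizes ethanol and paracetamol. CYP1A2 oxidizes caffeine and aromatic amines, and its gene is a target of the aryl hydrocarbon receptor. Both genes are known for high levels in the pericentral hepatocytes around the central vein, where Wnt signals act, and CCl4 injury is centred on that zone.

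In the GENCODE M21 annotation of GRCm38, the build named in the study's methods, Cyp2e1 (ENSMUSG00000025479) is a protein-coding gene at chr7:140763739-140774987 on the plus strand, with 9 exons in its longest transcript. Cyp1a2 (ENSMUSG00000032310) lies at chr9:57676937-57683703 on the minus strand, with 7 exons in its longest transcript. No other annotated gene overlaps either of them. The nearest gene to Cyp1a2 is its paralog Cyp1a1. Because the members are read together below, the 250 bases upstream of each RefSeq start (GRCm38.p6) are printed 5′ to 3′ on the gene's strand. They cover chr7:140763569-140763818 for Cyp2e1 and chr9:57683656-57683905 for Cyp1a2. Both windows reach into the GENCODE gene, whose outermost annotated start lies upstream of the RefSeq start. Capitals mark the motifs found among those searched.
Cyp2e1: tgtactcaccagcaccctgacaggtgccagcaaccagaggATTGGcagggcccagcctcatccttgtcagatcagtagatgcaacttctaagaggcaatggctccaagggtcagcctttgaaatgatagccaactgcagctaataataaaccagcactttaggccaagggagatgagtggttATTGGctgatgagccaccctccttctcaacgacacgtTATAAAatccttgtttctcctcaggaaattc
Cyp1a2: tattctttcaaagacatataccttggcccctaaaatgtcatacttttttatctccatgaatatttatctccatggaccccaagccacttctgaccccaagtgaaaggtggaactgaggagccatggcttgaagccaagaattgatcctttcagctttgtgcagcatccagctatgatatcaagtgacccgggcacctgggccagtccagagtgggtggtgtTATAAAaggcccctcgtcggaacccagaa
The letters TATAAA, the core promoter element of many tissue-specific genes, started 31 bases before the start of Cyp2e1 and 29 bases before that of Cyp1a2, and stood on either strand in 12.4% of 32851 promoters of the same length. The letters CCAAT, which stand in the capitals as their reverse complement ATTGG, occurred at 210 and at 68 bases before the start of Cyp2e1 and in 33.8% of all promoters. The core of the aryl hydrocarbon receptor site GCGTG (28.2% of promoters), the hepatocyte nuclear factor 1 letters GTTAAT (6.43%) and the forkhead letters TGTTTAC (3.17%) were searched on both strands and were in neither window.

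The libraries held 11245 (control), 12984 (HFD) and 12761 (CCl4) barcodes, with medians of 2939, 2336 and 2173 UMIs. Between 36 and 52 barcodes were shared by any pair of libraries. Cells were clustered with both members left out of the genes used. Hepatocyte-like cells were the clusters named from 14 hepatocyte markers such as Alb, Apoa1 and Ttr. Single hepatocytes were those with 3 to 30% mitochondrial UMIs and no UMI of Ptprc, the leukocyte antigen CD45. This left 1201 control, 815 HFD and 2298 CCl4 cells, with medians of 8454, 3623 and 3129 UMIs. In each library all 14 hepatocyte markers were present in them, with summed levels of 114271, 116686 and 162876 CPM, the UMIs of a gene per 1000000 UMIs. The markers of lymphocytes and vessels were near 0. The 9 T cell markers summed to 9.32, 13.9 and 10.2 CPM and the 9 endothelial markers to 16.7, 7.90 and 5.28 CPM. The lists of plasma cells (6 markers, 1000.4, 469 and 567 CPM) and cholangiocytes (8 markers, 1343, 458 and 596 CPM) summed higher, and their part in the results was not tested.

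The cells of the 3 libraries came from different clusters. All control cells lay in 1 cluster led by Steap4, Il1r1 and the acute phase gene Serpina3n. On HFD, 809 of the 815 cells lay in a cluster led by Slc1a2 and Glul, both pericentral genes. With CCl4, 2184 cells lay in a cluster led by G6pc and Etnppl, 72 in the cluster led by Slc1a2 and Glul, and 42 in a cluster led by Hamp2. Since clusters followed libraries, a difference between clusters cannot be told apart from one between libraries. The lower mitochondrial limit cut through a continuous range. Cells at 2 to 3% numbered 57, 144 and 563, and cells at 3 to 4% numbered 81, 189 and 538.

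RNA that leaks from broken hepatocytes is captured in every droplet, and T cell-like cells, which are not known to make either enzyme, served to measure it. They numbered 1738 (control), 1949 (HFD) and 2000 (CCl4), with medians of 2378, 2214 and 2019 UMIs. Cyp2e1 stood in them at 328 CPM in control, 1738 CPM on HFD and 242 CPM with CCl4. Cyp1a2 stood in them at 29.7, 228 and 7.07 CPM. The HFD library was thus the highest in free RNA of both genes and the CCl4 library the lowest, the order also found in the hepatocytes themselves.

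Per droplet, the amount of free Cyp2e1 RNA was similar in cells of very different kinds. Over 13 named classes other than hepatocytes with at least 50 cells, the mean number of Cyp2e1 UMIs per cell ran from 0.829 in fibroblast/stellate-like to 1.21 in erythroid-like cells of the control library. It ran from 3.70 in plasma cell-like to 4.91 in endothelial-like cells on HFD. With CCl4, over 11 classes, it ran from 0.434 in plasmacytoid dendritic-like to 0.757 in endothelial-like cells. Cyp1a2 varied more between classes. It ran from 0.0532 to 0.145 UMIs per cell in control, from 0.444 to 0.974 on HFD and from 0 to 0.0947 with CCl4.

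Single hepatocytes carried more. Cyp2e1 reached 8.26 UMIs per cell in control, 9.22 on HFD and 1.09 with CCl4, which was 8.84, 2.21 and 2.06 times the number in T cell-like cells of the same library. Cyp1a2 reached 1.66, 3.37 and 0.0783 UMIs per cell, which was 19.7, 6.17 and 5.05 times the number in T cell-like cells. In CPM, which divides by the larger UMI totals of hepatocytes, the gap was smaller. The ratio of hepatocytes to T cell-like cells in CPM was 2.82 (2.67 to 2.97) for Cyp2e1 in control, 1.37 (1.32 to 1.41) on HFD and 1.22 (1.13 to 1.31) with CCl4. For Cyp1a2 it was 6.27 (5.30 to 7.46), 3.81 (3.54 to 4.09) and 2.99 (2.03 to 4.52).

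Of 14 cell classes ordered by the median of their levels over the 3 libraries, single hepatocytes came first for both genes. They were followed for Cyp2e1 by erythroid-like cells (median 428 CPM) and B cell-like cells (414 CPM). In control the intervals of these neighbours overlapped, at 377 to 485 CPM against 389 to 439 CPM, so their order was not resolved. Plasma cell-like cells came last for both genes, at medians of 134 CPM of Cyp2e1 and 12.2 CPM of Cyp1a2. For Cyp1a2 with CCl4 the hepatocytes did not stand first, since endothelial-like cells reached 28.6 CPM (16.4 to 46.5) against 21.1 CPM (18.1 to 24.4), with overlapping intervals.

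**Figure D1:**
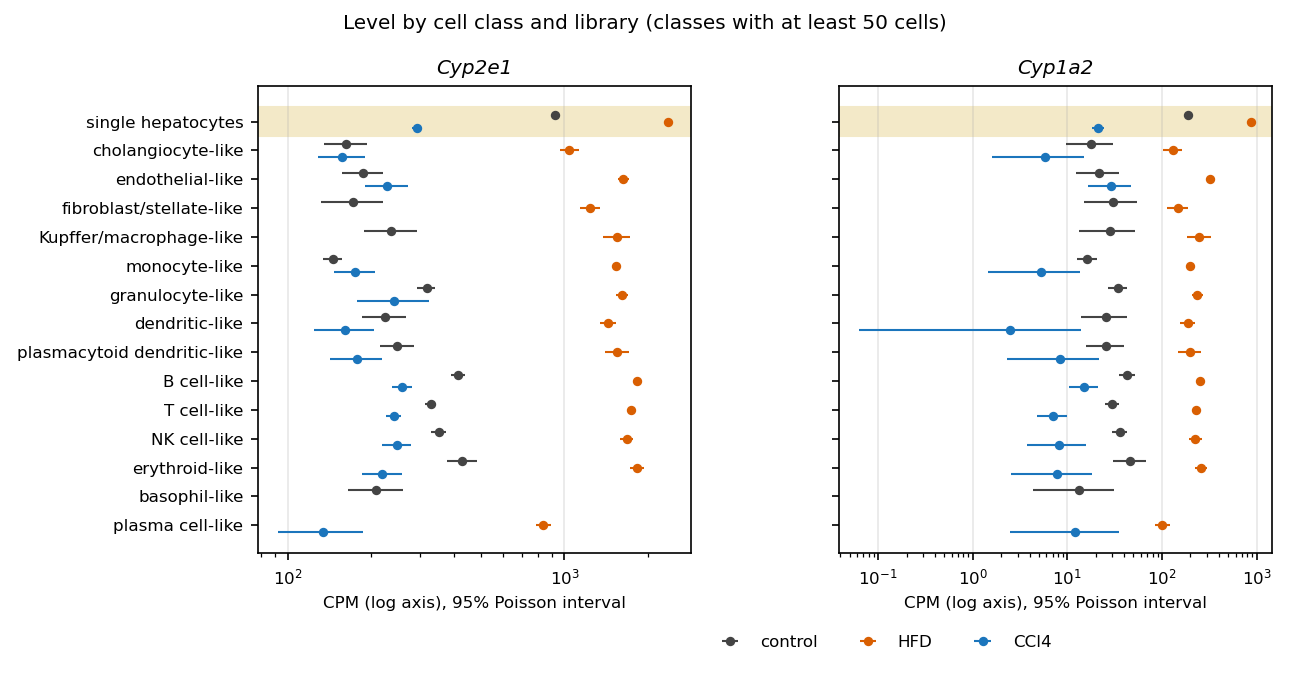
Level of each gene in CPM on a log axis, by cell class (rows) and library (colours), with 95% Poisson intervals; classes with fewer than 50 cells in a library and those at 0, such as Cyp1a2 in granulocyte-like cells with CCl4, are not drawn. For Cyp2e1 the classes other than hepatocytes lie in a band that moves with the library, from 145 to 428 CPM in control and from 838 to 1833 CPM on HFD. The hepatocytes (shaded) lie above this band for Cyp2e1.

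Cyp2e1 was spread very unevenly over the control hepatocytes. The 1201 cells held 9918 UMIs, with a median of 1 UMI and a highest cell of 99 UMIs, and 60.0% of cells had at least 1. The 10% of cells richest in Cyp2e1 held 54.1% of its UMIs. The 815 HFD cells held 7514 UMIs, with a median of 4, a highest cell of 53 and 88.3% of cells with a UMI, and the richest 10% held 35.3%. The 2298 CCl4 cells held 2506 UMIs, with a median of 0, a highest cell of 39 and 29.1% with a UMI, and the richest 10% held 78.9%. The concentration in few cells was thus highest with CCl4 and lowest on HFD, at the depths given above.

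Cyp1a2 was sparser. It had 1998 UMIs in control, 2745 on HFD and 180 with CCl4, and the share of hepatocytes with a UMI was 40.8%, 60.6% and 5.92%. Its highest cell had 24 UMIs in control, 24 on HFD and 7 with CCl4. In T cell-like cells 7.88%, 41.8% and 1.55% had a UMI of Cyp1a2, and 57.0%, 98.3% and 39.9% had a UMI of Cyp2e1.

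At a matched depth of 1000 UMIs per cell, which no cell fell short of, the share of cells with a Cyp2e1 UMI was 36.8% in control hepatocytes against 29.6% in T cell-like cells. On HFD it was 64.6% against 82.1% and with CCl4 15.1% against 21.4%. A single Cyp2e1 UMI in the HFD and CCl4 hepatocytes was therefore at the level of free RNA and is not read as transcription in that cell. In control the 2 shares lay close together, and a single UMI is not read as transcription there either. The hepatocytes were deeper than the T cell-like cells, so thinning took off a larger part of their UMIs. With at least 5 UMIs at that depth the hepatocytes separated from the T cell-like cells, at 7.63% against 0.0110% in control, 24.4% against 3.94% on HFD and 1.302% against 0% with CCl4. For at least 1 UMI of Cyp1a2 the hepatocytes stood above the T cell-like cells in each library, at 16.3% against 3.17%, 41.8% against 20.5% and 1.78% against 0.751%.

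**Figure D2:**
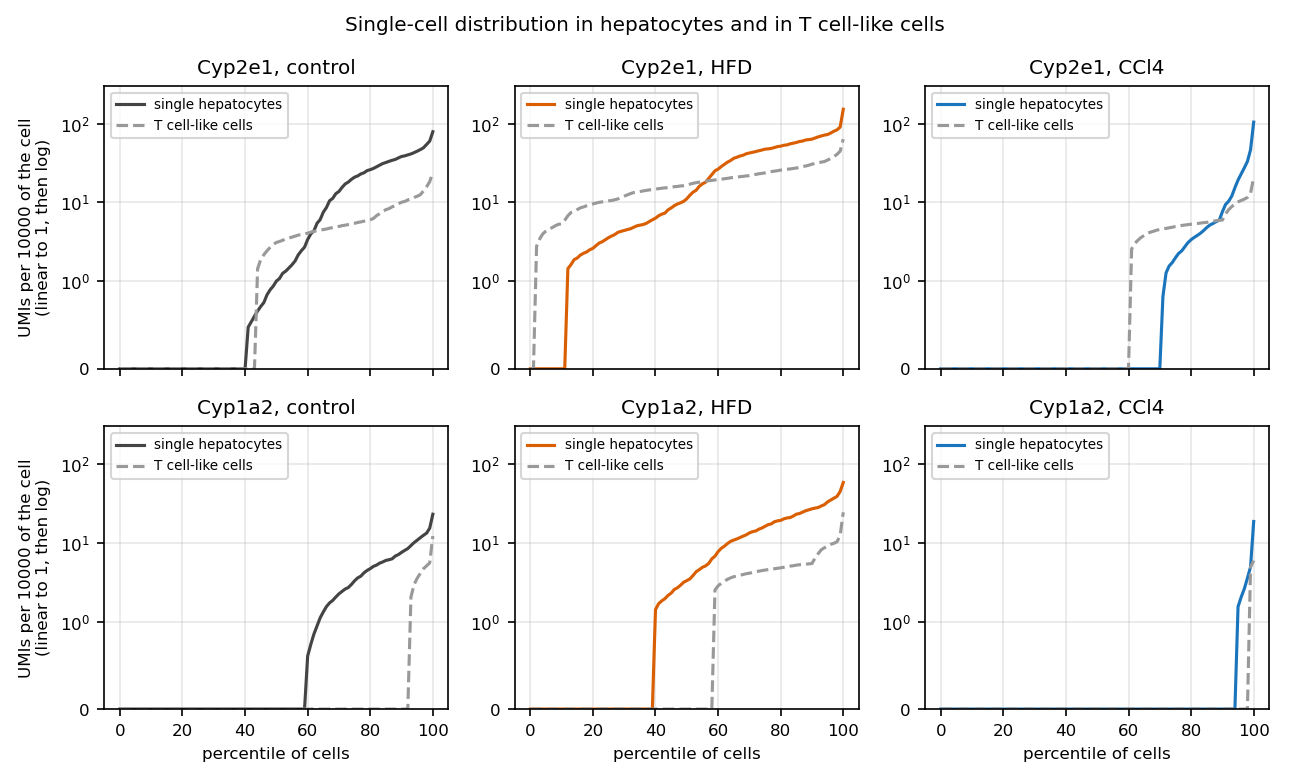
UMIs per 10000 UMIs of the cell (vertical axis, linear up to 1 and logarithmic above) against the percentile of cells, for single hepatocytes (solid) and T cell-like cells (dashed) of each library; the upper row is Cyp2e1 and the lower row Cyp1a2. The Cyp2e1 curves cross, since the poorest hepatocytes hold less per UMI than T cell-like cells and the richest hold far more, and with CCl4 the rise is limited to the last few percentiles.

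To separate hepatocytes with more Cyp2e1 than free RNA gives, a bound was set for each cell, which a Poisson count at the T cell-like level of its library passes in at most 1 of 1000 cases. This bound was chosen after the values had been seen. In control 350 hepatocytes (29.1%, 26.6 to 31.8%) lay above it, on HFD 217 (26.6%, 23.6 to 29.8%) and with CCl4 134 (5.83%, 4.91 to 6.87%). Among T cell-like cells 5, 3 and 0 cells did. The control and HFD shares overlapped in their intervals, and the CCl4 share lay below both. The median bound over the hepatocytes was 9, 15 and 5 UMIs. It was scaled to the UMI total of each cell, whereas free Cyp2e1 RNA per droplet was similar over the classes. The bound was thus stricter in deeper cells, and the shares of the 3 libraries were taken at unlike bounds. Cells that passed by the last UMI numbered 19, 22 and 22, and cells at the bound itself 19, 20 and 34.

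Inside these cells, the level of Cyp2e1 was 3253 CPM in control, 6115 CPM on HFD and 2972 CPM with CCl4, against 104, 997 and 115 CPM in the rest of the hepatocytes. The cells above the bound held 91.7%, 69.3% and 63.4% of the hepatocytes' Cyp2e1 UMIs. In UMIs per cell they held 26.0, 24.0 and 11.9. Since Cyp2e1 itself chose these cells, its levels in them are a description. For Cyp1a2, cells above its own bound numbered 234 (19.5%) in control, 211 (25.9%) on HFD and 26 (1.13%) with CCl4, and 0, 3 and 0 T cell-like cells were above it.

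Cells above one bound were often above the other. In control 217 cells were above both bounds, which was 62.0% of the cells above the Cyp2e1 bound and 92.7% of those above the Cyp1a2 bound. On HFD 154 cells were above both, 71.0% and 73.0% of each. With CCl4 14 cells were above both, 10.4% and 53.8% of each. Across single hepatocytes, the Pearson correlation of the log levels was 0.778 in control (1201 cells), 0.772 on HFD (815 cells) and 0.304 with CCl4 (2298 cells). These cells share their library and free RNA, and with CCl4 most cells had neither gene (1592 of 2298).

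Cyp1a2 was not used to choose the cells above the Cyp2e1 bound, and it was higher in them than in the rest of the hepatocytes, 16.8-fold (14.8 to 19.1) in control, 5.38-fold (4.97 to 5.83) on HFD and 9.72-fold (7.11 to 13.2) with CCl4. Pericentral genes were also higher in them. Oat, which converts ornithine, was higher 29.0-fold in control, 8.06-fold on HFD and 41.6-fold with CCl4. Glul, the glutamine synthetase of the innermost pericentral cells, was higher 5.80-fold, 12.5-fold and 17.0-fold. Cyp2f2, a P450 of periportal cells, stood at 0.0448, 0.0567 and 0.393 times the level of the rest. This contrast was less deep with CCl4. Of the 10 periportal genes of the score described below, only Pck1 was higher in the cells above the bound, in control alone, 1.23-fold (1.19 to 1.28).

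Hepatocytes were then ordered along the lobule by a score made of 8 pericentral and 10 periportal genes outside the P450 family, standardized within each library, and divided into 3 equal groups called periportal, middle and pericentral. Such a group is a range of the score and not a cell type. Neither Cyp2e1 nor Cyp1a2 was part of the score. Pck1, scored as periportal, was 1.12-fold (1.08 to 1.16) higher in the pericentral than in the periportal group of control. With CCl4 some pericentral genes of the score were near 0. Slc1a2, Gstm3 and Lhpp had 32, 31 and 8 UMIs in the pericentral group of 766 cells and 0 in the periportal group. Rgn had the most of the 8, with 1745 in the pericentral group. The order of the CCl4 cells thus rests in part on few UMIs. In control Cyp2e1 stood at 41.6 CPM in the periportal, 239 CPM in the middle and 3024 CPM in the pericentral group. On HFD it stood at 378, 1547 and 5611 CPM. With CCl4 it stood at 54.2, 64.6 and 818 CPM. The pericentral group was highest in each library, by 72.7-fold (62.9 to 84.6) over the periportal group in control, 14.8-fold (13.5 to 16.4) on HFD and 15.1-fold (12.9 to 17.8) with CCl4.

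Cyp1a2 followed the same axis. Its levels in the periportal, middle and pericentral groups were 7.19, 76.2 and 579 CPM in control, 73.3, 543 and 2150 CPM on HFD and 4.99, 8.34 and 53.5 CPM with CCl4. The pericentral group was higher by 80.6-fold (56.8 to 118) in control, 29.3-fold (23.7 to 36.6) on HFD and 10.7-fold (6.28 to 19.7) with CCl4. The pericentral group held 90.1%, 74.5% and 86.1% of the Cyp2e1 UMIs of the hepatocytes and 85.7%, 78.1% and 78.3% of the Cyp1a2 UMIs. It was the shallower group, with medians of 7136, 3580 and 2862 UMIs per cell against 10927, 4392 and 3382 in the periportal group.

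In the periportal group Cyp2e1 lay below the free RNA. It stood there at 0.461, 1.71 and 0.213 UMIs per cell, which was 0.494, 0.410 and 0.401 times the number in T cell-like cells of the same library. Cyp1a2 stood at 0.943, 0.606 and 1.26 times the T cell-like number, the last from 15 UMIs. The lower fold between the zones on HFD stood beside a periportal level of 378 CPM and a T cell-like level of 1738 CPM, and the part of free RNA in these folds was not tested. Periportal hepatocytes thus held fewer Cyp2e1 UMIs than T cell-like droplets in each library.

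In 10 equal bins of the score, the Cyp2e1 level of control hepatocytes lay between 35.8 and 64.5 CPM in the first 5 bins and then went to 246, 1165, 2226, 3106 and 3998 CPM in the last 5. On HFD the step came 1 bin sooner, with 343 to 462 CPM in the first 4 bins, 786 CPM in the next and 6185 CPM in the last. With CCl4 the first 6 bins lay between 43.4 and 69.0 CPM, followed by 99.8, 285, 549 and 1757 CPM. The first bin above all lower bins by its interval was bin 6 in control, bin 5 on HFD and bin 8 with CCl4. With CCl4 the interval of bin 7 (79.5 to 124 CPM) overlapped that of bin 4 (52.9 to 88.4 CPM). Bin 6 in control and bin 5 on HFD were still below the T cell-like levels of 328 and 1738 CPM. Bins rank the captured cells within each library, so a bin number is not a matched position along the lobule across libraries. Cyp1a2 with CCl4 exceeded the T cell-like level of 7.07 CPM by more than its interval in the last 3 bins, at 39.6 CPM (26.7 to 56.6), 34.4 CPM (22.5 to 50.4) and 97.1 CPM (77.2 to 120).

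**Figure D3:**
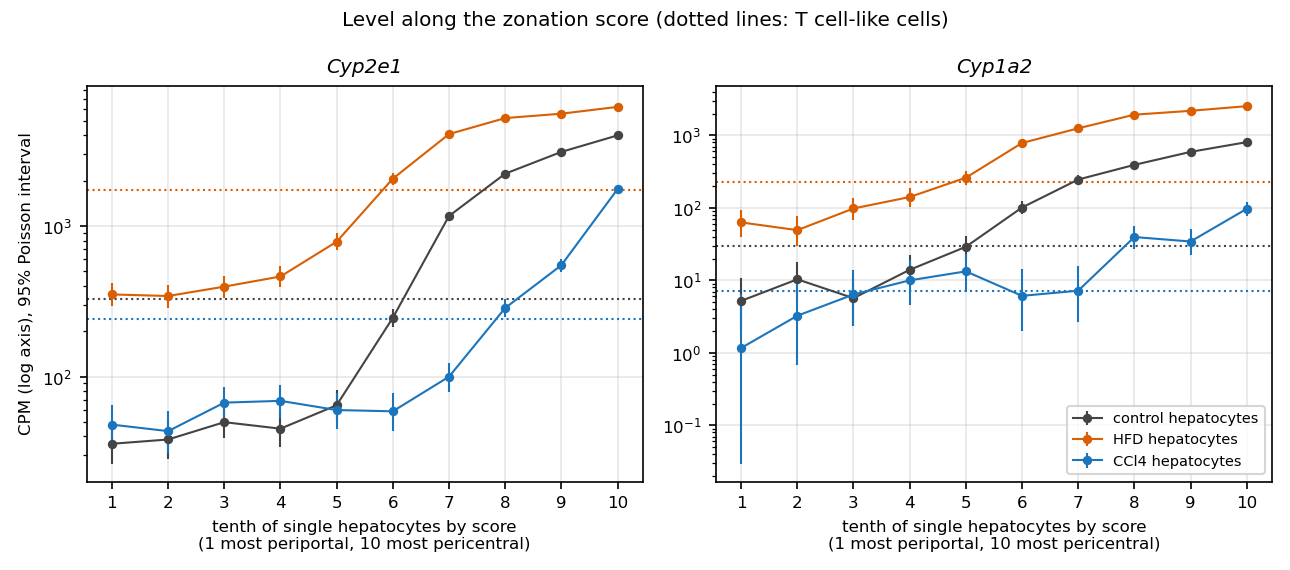
CPM of each gene on a log axis against the bin of single hepatocytes by the zonation score, from most periportal (1) to most pericentral (10), with 95% Poisson intervals; dotted lines give the T cell-like level of each library in the same colour. Cyp2e1 crosses the dotted line between bins 6 and 7 in control, between 5 and 6 on HFD and between 7 and 8 with CCl4.

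Between libraries, both genes were highest on HFD and lowest with CCl4 when the hepatocytes of a library were summed. Cyp2e1 stood at 925 CPM (907 to 943) in control, 2374 CPM (2321 to 2428) on HFD and 294 CPM (283 to 306) with CCl4. Cyp1a2 stood at 186 CPM (178 to 195), 867 CPM (835 to 900.3) and 21.1 CPM (18.1 to 24.4). For neither gene did any pair of these intervals overlap. Relative to control, Cyp2e1 was 2.57-fold higher on HFD (2.49 to 2.65) and 3.14-fold lower with CCl4 (3.01 to 3.29). Cyp1a2 was 4.66-fold higher on HFD (4.39 to 4.93) and 8.82-fold lower with CCl4 (7.57 to 10.3).

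Differences of more than 2-fold were not rare, but few genes lay beyond the ratios of the members. Of 7138 genes with at least 10 CPM in control or HFD hepatocytes, 8.01% were more than 2-fold higher on HFD and 5.53% more than 2-fold lower, and both members were among the higher. Of 7014 genes with at least 10 CPM in control or CCl4 hepatocytes, 6.84% were more than 2-fold lower with CCl4 and 7.61% more than 2-fold higher, and both members were among the lower. On HFD 3.66% of genes had a higher ratio than Cyp2e1 and 0.981% a higher ratio than Cyp1a2. With CCl4 3.15% of genes had a lower ratio than Cyp2e1 and 0.998% a lower ratio than Cyp1a2. The median ratio of all tested genes was 1.10 on HFD and 1.05 with CCl4. The control hepatocytes also differed in their acute phase genes, and 10 such genes summed to 66577 CPM in control, 16422 CPM on HFD and 14348 CPM with CCl4, with Saa1 at 11254, 520.0 and 169 CPM. The part of this in the ratios was not tested, and without acute phase, major urinary protein and mitochondrial genes in the total the Cyp2e1 ratios were 2.38 and 0.295.

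The higher Cyp2e1 level on HFD depended on the scale. In UMIs per cell the HFD hepatocytes held 1.12 times the control number, since they had 3623 UMIs at the median against 8454. With the UMIs per T cell-like cell taken off, 7.32 UMIs were left in control and 5.06 on HFD, a ratio of 0.690, which turned the direction. Periportal hepatocytes held only 0.494 (control) and 0.410 (HFD) times the T cell-like number of Cyp2e1 UMIs. The amount taken off, 0.934 UMIs in control and 4.16 on HFD, thus exceeded the whole mean count of these cells, 0.461 and 1.71 UMIs. By how much it exceeded the free RNA of other hepatocytes was not tested, so the ratio of 0.690 is not read as a lower level on HFD. In CPM with the T cell-like level taken off, 596 and 636 CPM were left, a ratio of 1.07. Cyp1a2 stayed higher on HFD on each of these scales, at 2.02, 1.79 and 4.08 times control. The lower levels with CCl4 held on these scales, at 0.132, 0.0765 and 0.0876 times control for Cyp2e1 and 0.0471, 0.0398 and 0.0897 times for Cyp1a2.

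**Figure D4:**
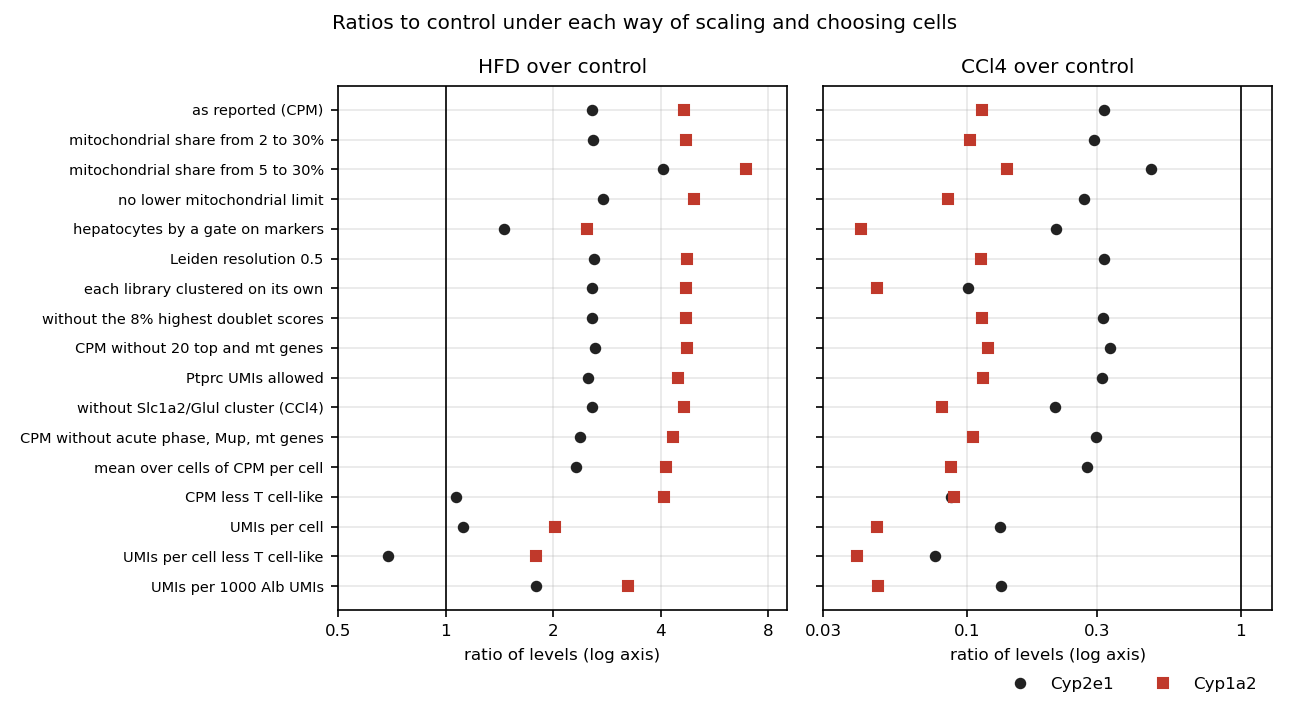
Ratio to control of the level in single hepatocytes on a log axis, for HFD (left) and CCl4 (right), under each way of scaling the counts or choosing the cells (rows); circles are Cyp2e1, squares Cyp1a2, and the vertical line marks 1. Cyp2e1 on HFD runs from 0.690 to 4.06 and lies to the left of 1 when UMIs per cell less the T cell-like number are compared, whereas both genes lie to the left of 1 with CCl4 in each row.

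Within the pericentral group, where free RNA weighs least, Cyp2e1 was 1.86-fold higher on HFD than in control in CPM (1.79 to 1.92) and 0.924 times control in UMIs per cell (20.6 against 22.3). Cyp1a2 was 3.71-fold higher in CPM (3.48 to 3.96) and 1.85-fold higher in UMIs per cell (7.91 against 4.28). With CCl4, Cyp2e1 in that group was 3.70-fold lower than in control in CPM and Cyp1a2 10.8-fold lower. The score was standardized within each library, so the groups of different libraries may hold unlike cells. Cyp2f2, the periportal P450, stood in the pericentral group at 1141 CPM with CCl4 and 80.2 CPM in control. This was 0.874 and 0.0657 times its periportal level. In the middle group the HFD levels were further above control, 6.46-fold for Cyp2e1 and 7.13-fold for Cyp1a2. In the periportal group they were 9.09-fold (7.65 to 10.8) and 10.2-fold (6.74 to 15.8) above control. Periportal cells held fewer UMIs of both genes than T cell-like cells in control and on HFD. Free RNA was also higher on HFD, and its part in these folds was not tested.

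With CCl4, the lower sum of Cyp2e1 went with fewer cells that held much of it. The share of cells above the bound was 5.83% against 29.1% in control. The level in those cells was 2972 CPM against 3253 CPM, a ratio of 0.914 (0.866 to 0.964) between cells that the gene itself had chosen, so that the bound sets this level in part. In UMIs per such cell it was 11.9 against 26.0. The 72 CCl4 cells in the cluster led by Slc1a2 and Glul made up 3.13% of the hepatocytes and held 36.5% of their Cyp2e1 UMIs, at 3008 CPM (2817 to 3210), with a median of 11 UMIs per cell. In the 2184 cells of the cluster led by G6pc and Etnppl, Cyp2e1 stood at 193 CPM (183 to 202), below the T cell-like level of 242 CPM, and its highest cell had 23 UMIs. Of the 134 cells above the bound 56 came from the first of these clusters and 78 from outside it. Without the 72 cells the CCl4 ratio to control went from 0.318 to 0.210.

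In the cells above the Cyp2e1 bound, Cyp1a2 stood at 612 CPM in control, 2142 CPM on HFD and 133 CPM with CCl4, a ratio to control of 3.503 (3.28 to 3.74) and 0.217 (0.169 to 0.275). In the same cells Cyp2c29 stood at 0.333 times (0.302 to 0.367) the control level with CCl4, Cyp3a11 at 0.525 times (0.477 to 0.576), Oat at 0.381 times, Glul at 0.643 times and Cyp2c50 at 0.769 times. On HFD Cyp2c29 stood at 1.18, Oat at 1.44, Cyp2c50 at 1.66, Cyp3a11 at 2.24 and Glul at 3.85 times control in the cells above the bound. Of Cyp1a2 and these 5 genes, Cyp1a2 had the lowest ratio with CCl4 and the next highest ratio after Glul on HFD.

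The balance of the 2 genes therefore differed between libraries. Of all UMIs of either gene in the single hepatocytes, Cyp1a2 made up 16.8% (16.1 to 17.5%) in control, 26.8% (25.9 to 27.6%) on HFD and 6.70% (5.78 to 7.71%) with CCl4. In the cells above the Cyp2e1 bound the shares were 15.8%, 25.9% and 4.27%. T cell-like cells gave 8.30% (7.06 to 9.68%), 11.6% (10.9 to 12.3%) and 2.84% (1.94 to 4.01%), in the same order of libraries but lower than the hepatocytes in each. T cell-like cells thus held less Cyp1a2 per Cyp2e1 than the hepatocytes of their own library. The other named classes together gave 9.60%, 12.2% and 4.67% (3.72 to 5.78% with CCl4). With CCl4 this interval reached to the edge of that of the hepatocytes, and the value lay above the 4.27% of the cells above the Cyp2e1 bound.

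Other P450 genes of families 1, 2 and 3 differed from control in both directions. Of 60 such genes, 27 had at least 10 CPM in control or HFD hepatocytes. Of these, 7 were more than 2-fold higher on HFD and 2 more than 2-fold lower, beside 8.01% and 5.53% of all genes. Their median ratio was 1.57 beside 1.10 for all genes. With CCl4 10 of 28 were more than 2-fold lower and 4 more than 2-fold higher, beside 6.84% and 7.61% of all genes. The median with CCl4 was 0.849 beside 1.05. Cyp2c29 (758, 1191 and 108 CPM in control, HFD and CCl4) and Cyp3a11 (1046, 2025 and 108 CPM), the main mouse counterpart of the human CYP3A4, followed the order of the members. Cyp2a5, which oxidizes coumarin, had the highest ratio to control on HFD (14.2) among those with at least 10 CPM, at 14.7, 209 and 4.46 CPM, beside T cell-like levels of 6.27, 147 and 5.25 CPM. Cyp2b9 had the highest ratio to control with CCl4 (104) among those with at least 10 CPM, at 0.932, 6.32 and 97.0 CPM. Cyp2f2, the periportal P450, went the other way with CCl4, at 834, 1176 and 1281 CPM. Cyp2c40 was low throughout, at 10.4, 2.53 and 0.587 CPM. The Cyp2c genes lie in a cluster of near-identical copies, so their counts may be split between them.

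**Figure D5:**
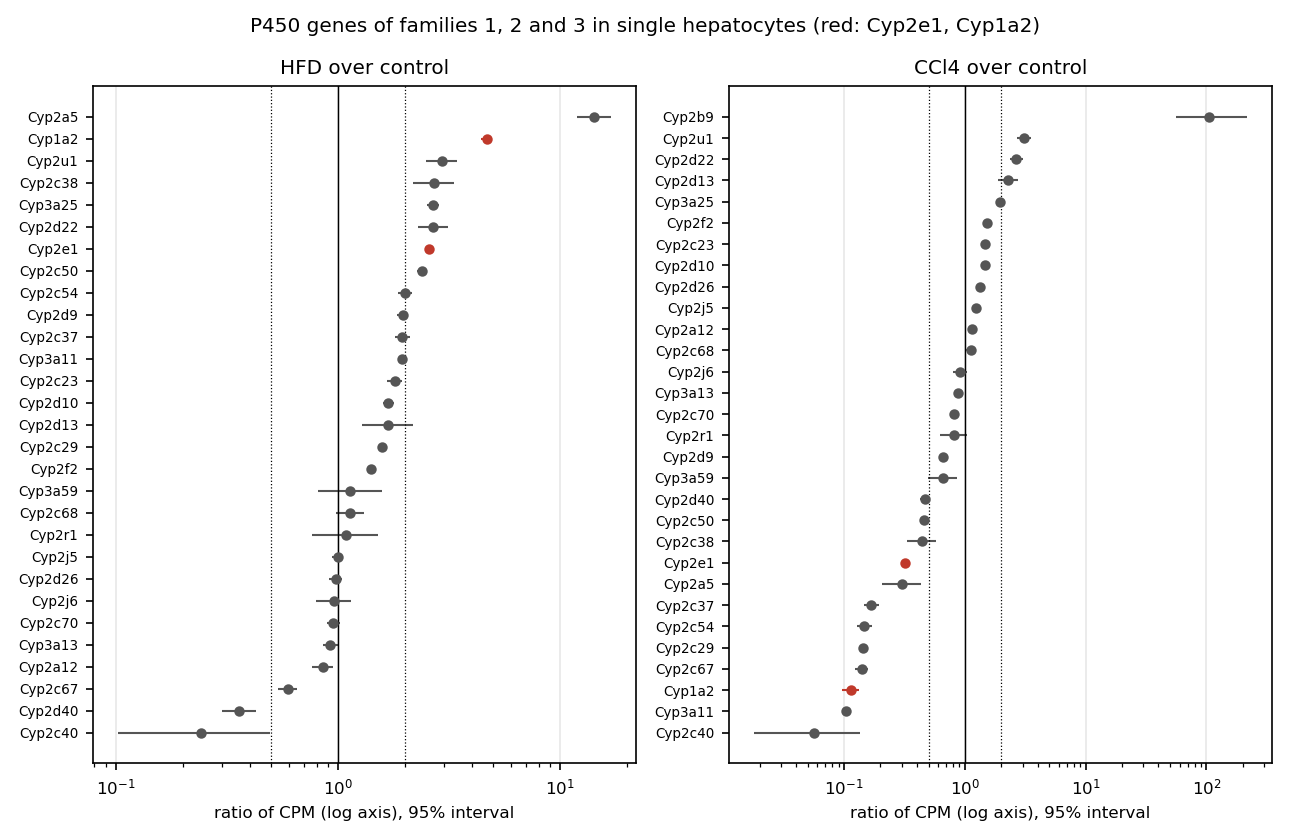
Ratio of CPM to control in single hepatocytes on a log axis with 95% intervals, for HFD (left) and CCl4 (right), for the P450 genes of families 1, 2 and 3 with at least 10 CPM in 1 of the libraries compared; dotted lines mark 2-fold and the members are red. Cyp1a2 is second to Cyp2a5 on HFD at 4.66, and with CCl4 only Cyp3a11 (0.104) and Cyp2c40 (0.0562) lie below it at 0.113.

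The partners of P450 enzymes were read beside all genes, of which 8.01% were more than 2-fold higher and 5.53% lower on HFD. Among 5 electron donors, Por, the P450 reductase, stood at 145, 215 and 116 CPM in control, HFD and CCl4, and Cyb5a, cytochrome b5, at 1006, 1963 and 1225 CPM. Of these 5 genes 1 was more than 2-fold higher on HFD (Cyb5r3, the cytochrome b5 reductase, 2.63-fold) and none was past 2-fold with CCl4. Among 12 genes of heme synthesis and breakdown, 2 of 10 tested were more than 2-fold higher on HFD and 1 more than 2-fold lower. With CCl4 1 of 9 was more than 2-fold lower, beside 6.84% of all genes. Alas1, the rate-limiting enzyme of heme synthesis, stood at 92.8, 133 and 181 CPM, and Hmox1, the heme oxygenase, at 85.6, 24.96 and 38.3 CPM. Among 5 genes of P450 protein turnover none was past 2-fold in either library. Stub1, a ubiquitin ligase, stood at 31.6, 42.7 and 30.4 CPM. In T cell-like cells Cyb5a stood at 778, 2117 and 1712 CPM, Alas1 at 40.4, 81.6 and 192 CPM and Stub1 at 52.4, 61.3 and 44.9 CPM. The hepatocyte levels were thus below them for Cyb5a on HFD and with CCl4, for Alas1 with CCl4 and for Stub1 in each library. Por and Hmox1 were lower in T cell-like cells than in hepatocytes in each library. The part of free RNA in these levels was not tested.

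Among 10 genes around the aryl hydrocarbon receptor, 4 passed the minimum level in each comparison. Of these, 2 were more than 2-fold lower on HFD, beside 5.53% of all genes, and 2 were more than 2-fold lower with CCl4, beside 6.84%. Ahr and Tiparp were lower with CCl4, as Cyp1a2 was, and also lower on HFD, where Cyp1a2 was higher. Ahr, the receptor itself, stood at 72.2, 31.9 and 26.8 CPM, and Tiparp, one of its targets and an immediate-early gene, at 206, 37.6 and 35.0 CPM. Nqo1, another target, stood at 7.09, 13.9 and 10.7 CPM. Cyp1a1, the paralog next to Cyp1a2, had 0 UMIs in the single hepatocytes of the 3 libraries. Taken as a 1-sided limit, which is lower than that of the 2-sided intervals used elsewhere, a count of 0 allows up to 3 UMIs among the 10726449, 3165256 and 8521699 UMIs of these cells.

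Of 17 hepatocyte factors and Wnt pathway genes, 14 were tested on HFD and 12 with CCl4. On HFD 6 were more than 2-fold higher and 2 more than 2-fold lower, beside 8.01% and 5.53% of all genes. With CCl4 2 were more than 2-fold higher and 2 more than 2-fold lower, beside 7.61% and 6.84%. Hnf4a stood at 181, 132 and 170 CPM, and Cebpb, an acute phase factor, at 1381, 438 and 498 CPM. Lgr5, the R-spondin receptor of pericentral cells, stood at 1.96, 10.7 and 0.117 CPM, and Tbx3, a Wnt target, at 8.76, 26.5 and 1.06 CPM. Lgr5 and Tbx3 were chosen for mention after their values were seen. With CCl4 they had 1 and 9 UMIs, and neither reached the minimum level in that comparison. Other Wnt pathway genes of the list did not go this way with CCl4. Rnf43 stood at 1.86, 11.7 and 5.40 CPM and Tcf7l2 at 40.2, 86.2 and 71.8 CPM. Axin2, Znrf3, Lgr4 and Ctnnb1 were not lower with CCl4 than in control either. Of these genes Tcf7l2, Lgr4 and Ctnnb1 reached the minimum level in that comparison, and Rnf43, Axin2 and Znrf3 did not. With CCl4 Rnf43, Axin2 and Znrf3 stood at 5.40, 0.939 and 6.45 CPM, below their T cell-like levels of 5.48, 4.56 and 7.76 CPM. They therefore cannot show whether hepatocyte levels held. The 8 pericentral landmarks of the score were more than 2-fold higher on HFD in 5 of 8, beside 8.01% of all genes. With CCl4 5 of 7 tested were more than 2-fold lower, beside 6.84%. Their median ratios were 2.10 and 0.213. The 10 periportal landmarks were more than 2-fold lower in 1 of 10 on HFD, beside 5.53% of all genes. With CCl4 6 of 10 were more than 2-fold higher, beside 7.61%. Their medians were 1.16 and 2.34. In single genes, Glul stood at 266, 865 and 52.0 CPM, Oat at 724, 1310 and 82.1 CPM, and Cps1, the first enzyme of the urea cycle, at 2013, 2838 and 5647 CPM.

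Dissociation and stress genes were more than 2-fold lower than control in 2 of 9 tested on HFD and 2 of 9 with CCl4. Of all genes, 5.53% and 6.84% were. Their sum over 10 genes was 4199 CPM in control, 2450 CPM on HFD and 3161 CPM with CCl4, and their part in the results was not tested. The 10 acute phase genes were more than 2-fold lower on HFD and with CCl4 in 10 of 10, beside 5.53% and 6.84% of all genes.

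The genes whose levels were most like those of the members included other P450s. Over 42 class and library sums with at least 30 cells, Cyp2e1 correlated most with Cyp4a10 (0.964), Cyp2c54, Cyp2c29, Cyp4a14 and Cyp2c50 (0.931), in falling order, on the log2 of CPM plus 1. Cyp1a2 correlated most with Cyp3a11 (0.945), Slco1a1 (0.919), Csad (0.908), Cyp2c29 (0.907) and Cyp2e1 (0.889). These sums share their library and its free RNA, and the part of this in the correlations was not tested. Across single hepatocytes, as a mean of the 3 libraries, the genes most like Cyp2e1 were Cyp2c29 (0.755), Cyp2c50 (0.702), Rgn (0.634), Cyp1a2 (0.618) and Oat (0.615). Those most like Cyp1a2 were Cyp2c29 (0.624), Cyp2c50 (0.619), Cyp2e1 (0.618), Rgn (0.572) and Oat (0.560). The most opposed gene was Alb for both, at -0.66 with Cyp2e1 and -0.57 with Cyp1a2. Correlations with Cyp2e1 were weaker with CCl4, at 0.564 for Cyp2c29 against 0.897 in control.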

How the data were processed

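Counts were deposited as raw UMIs per barcode for 3 libraries, without normalization, and per the file headers were made with Cell Ranger 7.2.0. The study's methods name mm10 (GRCm38) as the reference and the submitters' processing notes name GRCm39 and Seurat, so the build of the counts is not settled; how barcodes were called as cells is not given in the sources used here. Of 55357 identifiers, 52081 are in GENCODE M21.

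Barcodes under 500 UMIs, under 200 genes or over 30% mitochondrial UMIs were dropped, which left 11207, 12983 and 12761. Scrublet marked 3, 0 and 3 barcodes, so it has not worked; doublets were not removed, and leaving out the 8% highest scores was an alternative. Leiden clustering (resolution 1.0, 15 neighbours, 30 principal components of 2000 variable genes, members left out, log counts per 10000 UMIs) gave 38 clusters. Clusters were named from 15 marker lists by markers among the 10 leading genes or, failing that, by the share of a list raised, and 4 clusters stayed unnamed. The 4 hepatocyte-like clusters were all named by the second route, with 8, 3, 9 and 5 of 14 markers raised in those led by Steap4, Slc1a2, G6pc and Hamp2, and so was a monocyte-like cluster led by Mpo and Elane. UMIs were summed per class and library and given as CPM with exact Poisson intervals, shares with Clopper-Pearson intervals and ratios with exact conditional intervals, all at 95%. Total UMIs per library were 49613255, 34985786 and 34061186, which sets the counting precision. Shares at a matched depth are exact expected values.

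The members, gene lists and alternatives were chosen with earlier results of these data known. In each list the text names the 3 genes with the highest control level and those with the highest and lowest ratios, of which some are given. The interval and thinning functions were tested on simulated data. Python 3.11.15, scanpy 1.11.5, scipy 1.17.1 and numpy 2.4.6 were used. Alternatives covered the mitochondrial limit, the choice of hepatocytes and of free RNA cells, clustering, doublets, scaling, thinning depth, the split of the score and the minimum level.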

Additional observations from a re-analysis of the deposited data

Results flagged for a closer look

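Cyp1a2 in endothelial-like cells of the CCl4 library stood at 28.6 CPM (16 UMIs in 7 of 169 cells) against 7.07 CPM in T cell-like cells, a ratio of 4.05 (2.07 to 7.63), above the T cell-like level outside the hepatocytes. B cell-like cells of that library also stood above it, at 15.1 CPM (10.5 to 21.1) from 34 UMIs, a ratio of 2.14 (1.27 to 3.59), and this interval overlaps that of the endothelial-like cells (16.4 to 46.5 CPM). Doublets were not removed. In the endothelial-like cells of that library Cyp2e1 stood at 0.947 times and Alb at 1.32 times the T cell-like level. In endothelial-like cells the Cyp1a2 ratio was 0.726 (0.404 to 1.22) in control. On HFD it was 1.42 (1.25 to 1.61) from 339 UMIs, so it was above the T cell-like level there too. Cyp2e1 stood at 0.939 times and Alb at 0.898 times that level in these HFD cells.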

How the results depend on the processing

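No paired analysis was possible because each group has 1 library, and no replicate could be left out for the same reason. Of the recomputed ratios, levels and shares, 66 left the counting interval of the reported value, 1 turned its direction and 49 stayed within it. Those without the 8% highest doublet scores were among the 49, and the 6 shares at another bound given last are not counted. Also among the 49 are the shares of genes past 2-fold. They were held against a fixed band, such as 5.34 to 12.0% for 8.01%, and not a counting interval. The setting without the Slc1a2 and Glul cluster took out CCl4 cells only. Its HFD ratios, 2.57 for Cyp2e1 and 4.66 for Cyp1a2, therefore could not change and are also among the 49. The scales per cell and per Alb UMI, the totals without acute phase genes, the setting without the Slc1a2 and Glul cluster and the bound were chosen after seeing the data. With UMIs per cell less those of T cell-like cells, Cyp2e1 on HFD turned to 0.690 times control. For Cyp2e1 the number taken off was above that of periportal hepatocytes. The other ratios were 0.0765 for Cyp2e1 with CCl4, and 1.79 and 0.0398 for Cyp1a2 on HFD and with CCl4. The following values give Cyp2e1 on HFD, Cyp2e1 with CCl4, Cyp1a2 on HFD and Cyp1a2 with CCl4 over control, in this order. They were 4.06, 0.470, 6.93 and 0.140 for 5 to 30% mitochondrial UMIs, and 2.76, 0.268, 4.94 and 0.0858 with no lower limit. A gate on markers, which left 47 control, 173 HFD and 446 CCl4 cells, gave 1.46, 0.211, 2.49 and 0.0411. The mean over cells gave 2.31, 0.275, 4.14 and 0.0874. CPM less the T cell-like level gave 1.07, 0.0876, 4.08 and 0.0897. UMIs per cell gave 1.12, 0.132, 2.02 and 0.0471, and UMIs per 1000 Alb UMIs gave 1.79, 0.134, 3.24 and 0.0476. Without acute phase, major urinary protein and mitochondrial genes in the total, Cyp2e1 gave 2.38 and 0.295 and Cyp1a2 on HFD 4.31. With CCl4 alone, Cyp2e1 gave 0.291 for 2 to 30% mitochondrial UMIs and 0.334 without mitochondrial and the 20 most abundant genes. Clustering each library on its own left 1432 CCl4 cells and gave 0.101 for Cyp2e1 and 0.0472 for Cyp1a2. Without the cluster led by Slc1a2 and Glul the values were 0.210 and 0.0810. The lower levels with CCl4 held their direction in each setting run, as did the higher Cyp1a2 on HFD.

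With B cell-like cells as free RNA, the ratio of hepatocytes to them was 2.24 and 1.295 for Cyp2e1 in control and HFD, and 4.36, 3.45 and 1.40 for Cyp1a2 in control, HFD and CCl4. With no lower mitochondrial limit the ratios to T cell-like cells were 3.19 and 1.66 for Cyp2e1 in control and HFD and 4.55 for Cyp1a2 on HFD. A split of the score into 2 equal groups gave pericentral over periportal ratios of 48.1, 10.4 and 9.76 for Cyp2e1 and 36.3, 15.5 and 5.41 for Cyp1a2 in control, HFD and CCl4, and no lower limit gave 7.53 and 5.47 with CCl4. At 500 UMIs the shares of hepatocytes with a UMI were 28.4%, 52.0% and 9.77% for Cyp2e1 and 9.43%, 29.3% and 0.925% for Cyp1a2, and with no lower limit 41.4%, 69.8% and 19.7% for Cyp2e1 and 47.7% for Cyp1a2 on HFD. A bound at 2 times the T cell-like level put 35.7%, 35.6% and 14.9% of cells above it for Cyp2e1 and 40.2%, 46.0% and 5.92% for Cyp1a2. The causes were not tested. At a median of 3129 UMIs per CCl4 hepatocyte, 180 UMIs of Cyp1a2 in 2298 cells limit what can be said of single cells.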

Other observations

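Droplets outside the single hepatocytes also carried both genes. Hepatocyte-like cells that the limits left out, by Ptprc or by the mitochondrial share, held more Cyp2e1 than the single hepatocytes in control (341 cells, 1572 CPM) and on HFD (354 cells, 3966 CPM), and 271 CPM in 4729 cells with CCl4. These groups are unlike across libraries, since most of the CCl4 cells lie in the cluster led by Hamp2 (3996 CCl4 cells, median 0.622% mitochondrial UMIs), while control and HFD clusters with a low mitochondrial share stayed unnamed and are given apart. Cyp1a2 stood in the cells left out at 325, 1380 and 16.4 CPM. A cluster of 3417 control droplets led by Mt1 and Saa2 held 270 CPM of Cyp2e1, and a cluster of 5203 HFD droplets led by Acaa1b and Fabp5 held 1768 CPM. The T cell-like levels were 328 and 1738 CPM.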
